A study of Mus musculus with 24 samples.

Results

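The Argonaute genes Ago1, Ago2, Ago3 and Ago4 were taken as the 4 rows of those names among 30590 gene symbols of the day 1 to 4 files, and by their Ensembl identifiers among 43629 identifiers of the endpoint files. All 4 were found and passed the expression filter in every fit. Argonaute proteins hold a microRNA or another small RNA and are guided by it to messenger RNAs of matching sequence. They then recruit GW182 (TNRC6) scaffold proteins, which bring in the deadenylation and decapping enzymes that silence the target. AGO2 is the member known for cutting well-paired targets, and the other members share its role in microRNA silencing.

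The series measured polyadenylated RNA from E14 mouse embryonic stem cells (mESCs) of 129/Ola background. AGO2 knockout (KO) cells and wild-type (WT) cells were taken through a 5-day protocol directed towards extraembryonic endoderm (XEN), the lineage that lines the yolk sac, in medium with serum, 0.1 µM all-trans retinoic acid and 10 ng/mL activin A. KO and WT cells were sampled on days 1, 2, 3 and 4 with 2 libraries for each genotype and day. The endpoint set held 2 KO and 2 WT libraries called diff_XEN and 2 WT mESC libraries, of passages 33 and 42, grown with serum and LIF, all re-used from earlier studies. The KO diff_XEN libraries were 1 library each of clones named C4 and 5-3, and which clone gave the KO libraries of days 1 to 4 is not given in the sources used here. The position of the edit in Ago2 is not given there either, so reads on Ago2 in KO cells count transcript and do not tell whether protein was made.

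Total counts were 10601574 to 27147835 in the 16 libraries of days 1 to 4 and 13941826 to 40139219 in the 6 endpoint libraries. The label of the differentiated cells was checked with markers. Levels are given as CPM, counts per 1000000 of the TMM-scaled total of the library. On day 4 the summed level of 6 primitive endoderm and XEN genes was 298 to 300 CPM in KO cells and 1450 to 1511 CPM in WT cells. That of 5 visceral endoderm genes was 19.1 to 40.2 CPM in KO cells and 2194 to 2238 CPM in WT cells, and no gene of either list was at 0 in both libraries of a day 4 group. KO cells of the same day thus held far less endoderm transcript than WT cells, and its part in the Argonaute differences below was not tested. In bulk samples, fewer cells of a type and less RNA per cell cannot be told apart.

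The 4 genes lie at 2 places in the mouse genome (GRCm38). Ago2 was at chr15:73095844-73184935 on the minus strand, with 14.03 kb of annotated exon. Ago3 (chr4:126331704-126429556), Ago1 (chr4:126435012-126468583) and Ago4 (chr4:126489541-126533472) followed each other on the minus strand of chromosome 4 in a block of 202 kb, with gaps of 5.46 and 20.96 kb between them. Their annotated exons added up to 16.6 kb for Ago3, 8.12 kb for Ago1 and 6.95 kb for Ago4, whereas the coding sequences were nearly alike, at 857 codons for Ago1, 860 for both Ago2 and Ago3, and 861 for Ago4. The 3′ end of Ago2 overlapped Chrac1, a gene on the plus strand, over 219 exon bases or 1.56% of the Ago2 exons. The libraries were reverse-stranded per the labels, but the strand setting of the counting is not given in the sources used here, so reads of that stretch are uncertain.

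The promoters of the 3 block members are shown because these neighbours on the same strand differed widely in level. RefSeq (GRCm38.p6) held the 250 bases before a start site for Ago1 (chr4:126468632-126468881), Ago3 (chr4:126429543-126429792) and Ago4 (chr4:126533459-126533708), each written 5′ to 3′ on the minus strand with CpG dinucleotides in capitals.

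Ago1: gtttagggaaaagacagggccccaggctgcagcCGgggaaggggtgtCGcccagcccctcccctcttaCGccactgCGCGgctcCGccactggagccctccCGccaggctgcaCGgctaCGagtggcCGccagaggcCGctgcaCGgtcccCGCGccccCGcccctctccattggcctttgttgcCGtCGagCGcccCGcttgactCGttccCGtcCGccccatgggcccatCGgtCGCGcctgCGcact

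Ago3: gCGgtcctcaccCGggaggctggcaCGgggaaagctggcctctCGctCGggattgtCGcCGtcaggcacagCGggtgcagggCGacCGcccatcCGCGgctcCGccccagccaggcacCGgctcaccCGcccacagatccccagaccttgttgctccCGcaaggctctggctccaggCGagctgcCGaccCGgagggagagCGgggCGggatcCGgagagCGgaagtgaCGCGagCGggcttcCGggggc

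Ago4: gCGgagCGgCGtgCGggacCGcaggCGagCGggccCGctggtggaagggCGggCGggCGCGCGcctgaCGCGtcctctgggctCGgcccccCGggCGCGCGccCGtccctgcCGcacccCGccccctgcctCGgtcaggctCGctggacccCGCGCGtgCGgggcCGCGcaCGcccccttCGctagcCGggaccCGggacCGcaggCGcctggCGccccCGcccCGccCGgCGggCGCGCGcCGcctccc

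These windows held 26 CpGs for Ago1, 27 for Ago3 and 46 for Ago4, against a median of 6 over 32851 mouse promoters cut to the same length. The share of promoters with fewer CpGs was 90.4% for Ago1, 91.4% for Ago3 and 99.7% for Ago4, and the GC content was 72.4%, 73.6% and 85.6% in the same order, against a median of 52.4%. All 3 held GGGCGG on either strand, as 32.7% of the promoters did, and none held TATAAA on either strand, which 12.4% held. The CpG-richest window belonged to Ago4, the member with the lowest level, but Ago1 and Ago3, with 26 and 27 CpGs, also differed in level. A link of CpG content with level was not tested. For Ago1, which had 2 start sites, the one farthest upstream was used, and no window was listed for Ago2.

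Ago2 was the target of the knockout and was lower in KO cells than in WT cells on each of the 4 days, without overlap, but its transcript was still counted in every KO library. On day 1, Ago2 had 43.4 and 33.8 CPM in KO cells, against 331.6 and 414.0 CPM in WT cells. On day 2 the values were 56.1 and 84.6 CPM in KO cells and 271.9 and 200.7 CPM in WT cells, and on day 3 they were 77.4 and 121.7 CPM in KO cells and 307.2 and 185.7 CPM in WT cells. On day 4, Ago2 had 108.6 and 148.2 CPM in KO cells, against 514.4 and 581.1 CPM in WT cells. The mean level in KO cells was thus 10.3%, 29.8%, 40.4% and 23.4% of the mean level in WT cells on days 1, 2, 3 and 4.

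The log2 difference of Ago2 between KO and WT cells was -3.27 ± 0.31 (SE) on day 1, with an adjusted p of 3.18e-04. Adjusted p-values came from the edgeR quasi-likelihood test with Benjamini-Hochberg adjustment over all genes tested, and genes below 0.05 were called. The difference was -1.75 ± 0.30 on day 2 (edgeR adjusted p = 0.00893), -1.31 ± 0.29 on day 3 (edgeR adjusted p = 0.0219) and -2.09 ± 0.30 on day 4 (edgeR adjusted p = 6.08e-04). Averaged over the 4 days it was -2.11 ± 0.15 (edgeR adjusted p = 6.36e-07). The share of all 17694 tested genes called, in both directions, was 13.6% on day 1, 1.63% on day 2, 4.83% on day 3, 7.04% on day 4 and 17.5% for the mean of the 4 days. These counts moved with single libraries, and the 2406 genes called on day 1 became 45 without KO replicate 2 and 4225 without KO replicate 1. No label says that replicates were grown as separate cultures, and the p-values therefore reflect no more than the spread among these libraries, possibly a technical one.

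The calls of Ago2 on days 2 and 3 were lost without some single libraries, although the difference kept its sign. With each library left out in turn, it was -2.06 to -1.49 on day 2 and -1.65 to -0.90 on day 3. Without KO replicate 1 of day 2 the difference was -1.49 (edgeR adjusted p = 0.093), and without WT replicate 1 of day 2 it was -1.51 (edgeR adjusted p = 0.0775). Without KO replicate 1 of day 3 it was -0.997 (edgeR adjusted p = 0.134), and without WT replicate 1 of day 3 it was -0.90 (edgeR adjusted p = 0.0623). The day 3 call was also lost in a fit of that day's 4 libraries alone, with a difference of -1.33 and an edgeR adjusted p of 0.226. The calls on day 1, day 4 and for the mean of the 4 days were kept without any single library.

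Ago1, an Argonaute that works in microRNA silencing and does not cut targets efficiently, was higher in KO cells for the mean of the 4 days and on day 3. On day 1 it had 116.7 and 91.5 CPM in KO cells and 104.6 and 128.3 CPM in WT cells, and the libraries of the genotypes overlapped. On day 2 it had 197.9 and 224.1 CPM in KO cells, against 150.0 and 135.0 CPM in WT cells. On day 3 it had 170.6 and 165.8 CPM in KO cells, against 106.2 and 85.01 CPM in WT cells. On both of these days each KO library was above each WT library. Here and below, with 2 libraries a group, such a separation can arise without a true difference. The share of all tested genes that separated in this way is not given here. On day 4 the genotypes overlapped again, at 112.8 and 168.4 CPM in KO cells and 101.8 and 126.1 CPM in WT cells.

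The log2 difference of Ago1 between KO and WT cells was -0.16 ± 0.20 on day 1 (edgeR adjusted p = 0.601), 0.57 ± 0.20 on day 2 (edgeR adjusted p = 0.191), 0.82 ± 0.20 on day 3 (edgeR adjusted p = 0.0315) and 0.30 ± 0.20 on day 4 (edgeR adjusted p = 0.433). Ago1 was called higher in KO cells on day 3 and for the mean of the 4 days, where the difference was 0.38 ± 0.10 (edgeR adjusted p = 0.0164). The call for the mean held without any of the 16 libraries in turn, with a difference of 0.32 to 0.47. The day 3 call was lost without KO replicate 1 (0.81, edgeR adjusted p = 0.0966), without KO replicate 2 (0.85, edgeR adjusted p = 0.0744), without WT replicate 2 (0.69, edgeR adjusted p = 0.224) and in a fit of that day's 4 libraries alone (0.80, edgeR adjusted p = 0.226). In such a fit of day 2 the difference was 0.56 with an edgeR adjusted p of 0.0168.

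Ago3 was not called between the genotypes on any of the 4 days, and its libraries stood apart on day 1 alone. It had 17.0 and 13.9 CPM in KO cells on day 1, against 23.3 and 34.2 CPM in WT cells, and the libraries did not overlap. The day 1 difference was -0.90 ± 0.29 (edgeR adjusted p = 0.0509), just outside the threshold. It passed by the DESeq2 Wald test (-0.86), without the expression filter (-0.88) and in a fit of that day's 4 libraries alone (-0.89). The values were 26.5 and 34.4 CPM in KO cells and 27.6 and 23.96 CPM in WT cells on day 2, and 28.5 and 40.0 CPM in KO cells and 24.4 and 33.5 CPM in WT cells on day 3. On day 4 they were 33.3 and 53.1 CPM in KO cells and 30.6 and 46.6 CPM in WT cells. The genotypes overlapped on these 3 days, and the differences were 0.24 ± 0.28, 0.23 ± 0.29 and 0.16 ± 0.28 on days 2, 3 and 4 (edgeR adjusted p = 0.771, 0.69 and 0.807). The mean of the 4 days was -0.06 ± 0.14 (edgeR adjusted p = 0.798).

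Ago3 and Ago2 have long exon models, and genes of that kind moved together between libraries. Among the 1396 tested genes with at least 10 kb of annotated exon, the median log2 difference between KO and WT cells on day 1 was -0.45, while the median of all tested genes was -0.02. With a smooth trend on exon length removed from each library, a setting chosen after seeing the data, the day 1 difference of Ago3 was -0.42 (edgeR adjusted p = 0.229) and that of Ago2 was -2.84 (edgeR adjusted p = 2.48e-05). Under that setting Ago1 was higher in KO cells by 0.73 on day 3 (edgeR adjusted p = 0.0191) and by 0.41 for the mean of the 4 days (edgeR adjusted p = 0.00255).

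Ago4 was the least abundant member, with 27 to 182 counts per library in KO cells and 47 to 188 in WT cells, and gave no call between the genotypes. On day 1 it had 2.13 and 1.24 CPM in KO cells and 2.36 and 3.37 CPM in WT cells, and on day 2 it had 6.32 and 7.30 CPM in KO cells and 9.12 and 8.70 CPM in WT cells. On both of these days each KO library was below each WT library, though neither difference was called. The values were 6.35 and 8.34 CPM in KO cells and 6.65 and 3.21 CPM in WT cells on day 3, and 6.08 and 7.18 CPM in KO cells and 5.75 and 6.30 CPM in WT cells on day 4, with overlap on both. The differences were -0.75 ± 0.36, -0.39 ± 0.32, 0.58 ± 0.34 and 0.14 ± 0.34 on days 1, 2, 3 and 4 (edgeR adjusted p = 0.157, 0.643, 0.362 and 0.869), and -0.10 ± 0.17 for their mean (edgeR adjusted p = 0.717). Without WT replicate 1 of day 3 the day 3 difference was 1.18 and passed the threshold (edgeR adjusted p = 0.0432).

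**Figure D1:**
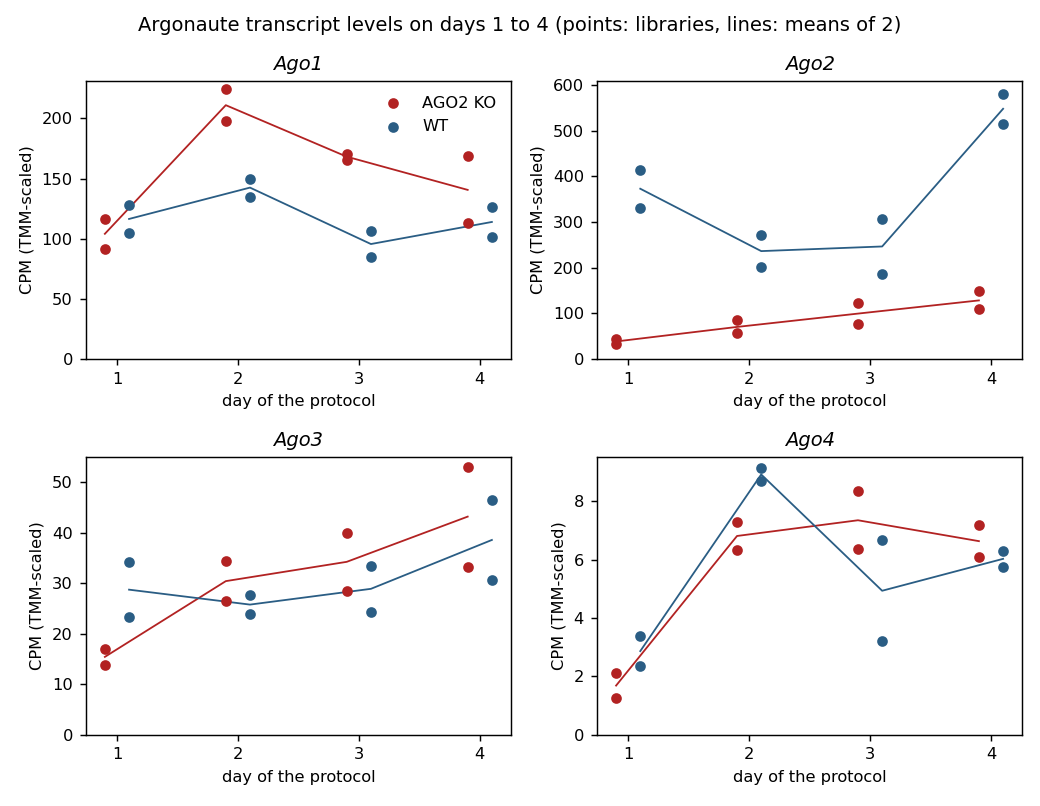
Level of each Argonaute gene in CPM (y axis, from 0, scaled per gene) on days 1 to 4 (x axis), with AGO2 KO libraries left of WT libraries of the same day; points are libraries and lines join the means of 2. Ago2 was below all WT libraries in each KO library, and Ago1 in KO cells was above WT cells on days 2 and 3.

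**Figure D2:**
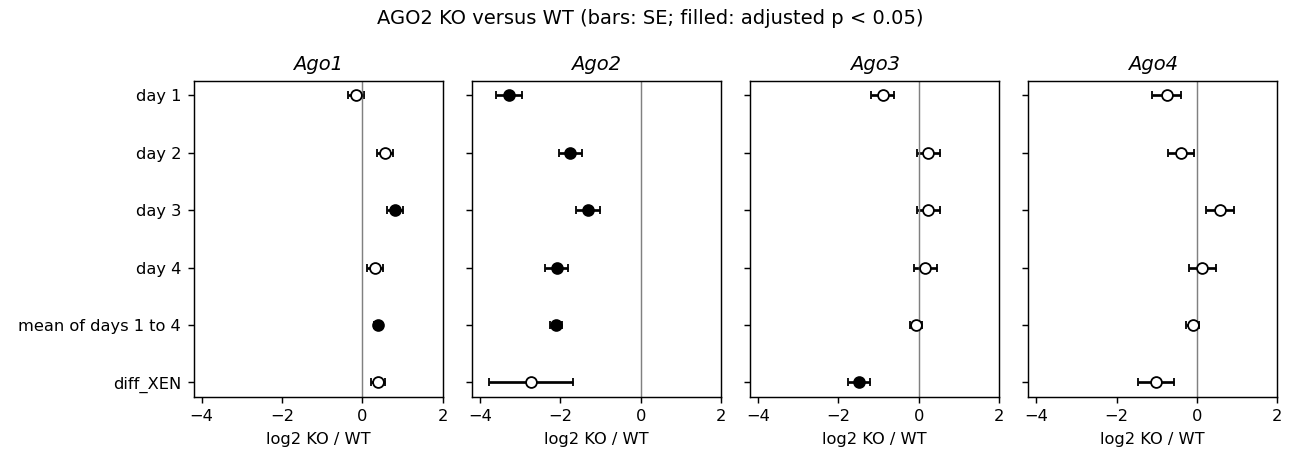
Log2 difference between AGO2 KO and WT cells (x axis) for each member on days 1 to 4, for the mean of the 4 days and for diff_XEN (y axis); bars are SE, and filled points have an edgeR adjusted p below 0.05. Ago2 was called lower on all 4 days, Ago1 higher on day 3 and for the mean, and Ago3 lower in diff_XEN.

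To compare the members with each other, levels were divided by the length of annotated exon, as CPM per kb. By that measure Ago1 came first, followed by Ago2, Ago3 and Ago4, in all 8 KO libraries of days 1 to 4. In WT cells Ago2 came first, followed by Ago1, Ago3 and Ago4, in 7 of 8 libraries, and Ago1 was ahead of Ago2 in WT replicate 2 of day 2. The Ago1 level per kb was 1.79 to 6.09 times the Ago2 level in KO libraries (median 4.19) and 0.342 to 1.16 times in WT libraries (median 0.571). By coding length the ratio was 1.04 to 3.54 in KO libraries (median 2.43) and 0.199 to 0.675 in WT libraries (median 0.332), so that Ago1 was then ahead in all 8 KO libraries and in 0 of 8 WT libraries. The values that follow are by exon length. In KO cells this ratio was 4.65 and 4.68 on day 1, 6.09 and 4.58 on day 2, 3.81 and 2.35 on day 3, and 1.79 and 1.96 on day 4. In WT cells it was 0.545 and 0.535 on day 1, 0.953 and 1.16 on day 2, 0.597 and 0.791 on day 3, and 0.342 and 0.375 on day 4. In both genotypes each day 4 library had a lower ratio than each day 2 library.

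**Figure D3:**
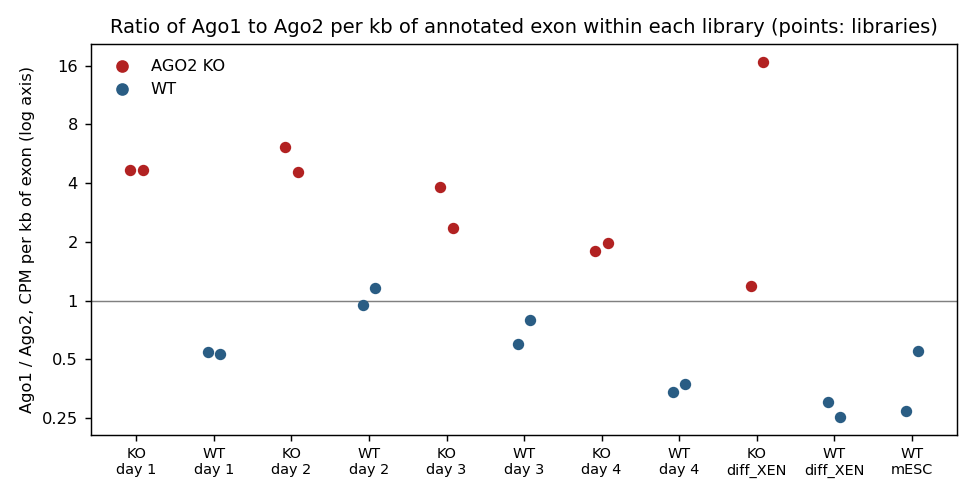
Ratio of the Ago1 level to the Ago2 level per kb of annotated exon (y axis, log axis) in each library, by group (x axis); points are libraries and the grey line marks equal levels. KO libraries of days 1 to 4 ranged from 1.79 to 6.09 and WT libraries from 0.342 to 1.16; the KO diff_XEN clones were at 1.18 and 16.7, of which the lower turned to 0.687 by coding length.

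Ago1 and Ago2 together made up most of the Argonaute transcript in every library. Ago1 held 56.7 to 78.9% of the summed level per kb in KO libraries of days 1 to 4 (median 73.6%) and 24.2 to 49.4% in WT libraries (median 34.3%). Ago2 held 13.0 to 31.6% in KO libraries (median 17.7%) and 42.5 to 70.7% in WT libraries (median 60.1%), so that neither share overlapped between the genotypes. The shares are parts of 1 sum, so a lower level of Ago2, the knockout target, by itself raises the share of Ago1. On day 1 the Ago1 share averaged 76.6% in KO cells and 33.3% in WT cells. The Ago1 level in KO cells was then 89.4% of the WT mean, with overlap. Ago3 held 5.17 to 9.02% in KO libraries and 3.56 to 7.71% in WT libraries. Ago4 held 1.22 to 3.67% in KO libraries and 0.889 to 3.72% in WT libraries.

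The sum of the 4 members did not overlap between the genotypes on days 1 and 4 and did on days 2 and 3. It was 18.8 and 14.7 CPM per kb in KO cells on day 1, against 38.3 and 47.8 in WT cells, and the KO mean was 38.9% of the WT mean. On day 2 the sum was 30.9 and 36.8 CPM per kb in KO cells and 40.8 and 33.6 in WT cells, or 90.8% of the WT mean. On day 3 it was 29.2 and 32.7 CPM per kb in KO cells and 37.4 and 26.2 in WT cells, or 97.3%. On day 4 it was 24.5 and 35.5 CPM per kb in KO cells and 51.9 and 60.7 in WT cells, or 53.4%.

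Without Ago2, the summed level of Ago1, Ago3 and Ago4 in KO cells was 84.9%, 141%, 168% and 121% of the WT mean on days 1, 2, 3 and 4. The genotypes overlapped on days 1 and 4 and did not on days 2 and 3. On day 2 the KO mean of Ago1 was 8.43 CPM per kb above the WT mean and that of Ago2 was 11.8 CPM per kb below it. On day 3 the KO mean of Ago1 was 8.95 CPM per kb above the WT mean and that of Ago2 was 10.5 CPM per kb below it. On day 4 the excess of Ago1 was 3.28 CPM per kb and the shortfall of Ago2 was 29.9 CPM per kb. With the coding length in place of the exon length, the KO sum was 30.7%, 77.1%, 82.4% and 45.2% of the WT mean on days 1, 2, 3 and 4, and the genotypes then overlapped on day 3 alone. The sums are a description and were given no test.

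**Figure D4:**
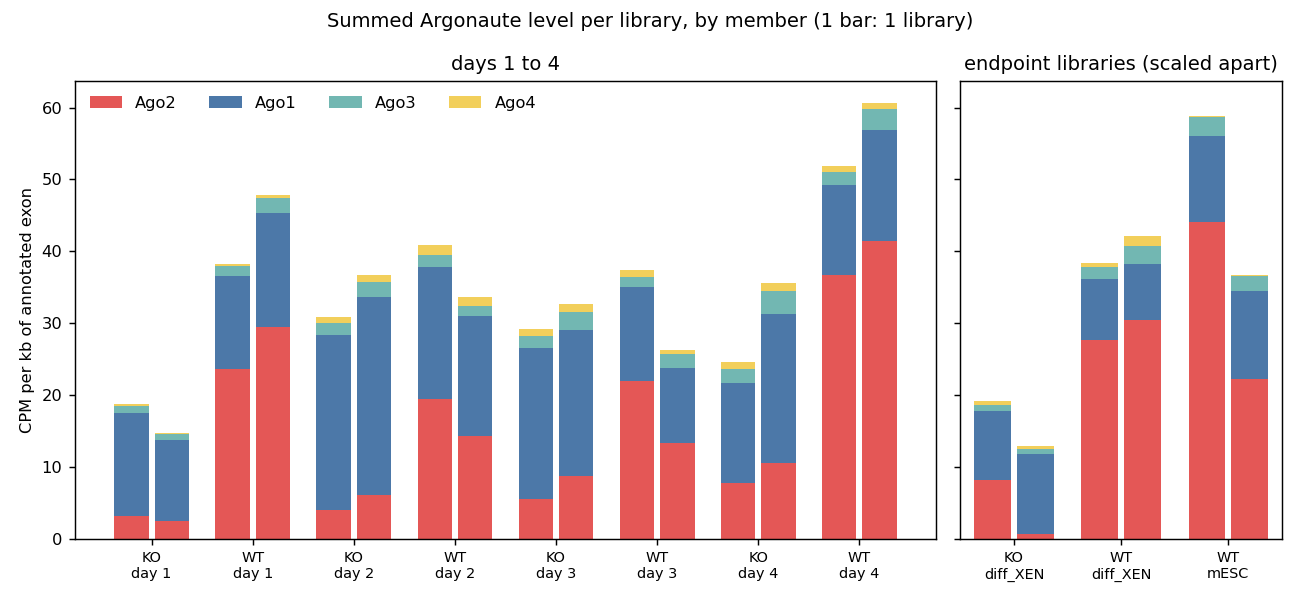
Summed Argonaute level in CPM per kb of annotated exon (y axis, from 0), stacked by member, with 1 bar per library and KO groups left of WT groups; endpoint libraries were scaled apart from days 1 to 4. On days 2 and 3 the KO bars (29.2 to 36.8) overlap the WT bars (26.2 to 40.8), and on days 1 and 4 they are below.

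Over the protocol, 3 of the 4 members rose in KO cells and 1 rose in WT cells between day 1 and day 4. In KO cells the day 4 over day 1 log2 change was 1.74 ± 0.30 for Ago2 (edgeR adjusted p = 1.85e-04), 1.49 ± 0.29 for Ago3 (edgeR adjusted p = 4.53e-04) and 1.96 ± 0.36 for Ago4 (edgeR adjusted p = 2.39e-04). That of Ago1 was 0.43 ± 0.20 (edgeR adjusted p = 0.0669), and 0.65 without replicate 1 of day 4 (edgeR adjusted p = 0.0148). In WT cells Ago4 alone was called, at 1.07 ± 0.34 (edgeR adjusted p = 0.0185), and the changes of Ago1, Ago2 and Ago3 were -0.03 ± 0.20, 0.56 ± 0.29 and 0.43 ± 0.28 (edgeR adjusted p = 0.913, 0.125 and 0.226). Of all tested genes, 66.3% were called in KO cells and 48.5% in WT cells, so that a call of a member is a common event in both courses.

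The Ago4 change in WT cells lost its call without replicate 1 of day 1 (0.81, edgeR adjusted p = 0.156), without replicate 1 of day 4 (1.12, edgeR adjusted p = 0.0514) and without replicate 2 of day 4 (0.96, edgeR adjusted p = 0.0919). The test of the difference between the genotypes' changes called none of the 4 members, where 6.42% of genes were called. That difference, KO minus WT, was 0.46 ± 0.28 for Ago1, 1.18 ± 0.41 for Ago2, 1.06 ± 0.40 for Ago3 and 0.89 ± 0.49 for Ago4 (edgeR adjusted p = 0.3, 0.0899, 0.113 and 0.255). Unadjusted, p was 0.0122 for Ago2 and 0.0194 for Ago3, and a DESeq2 Wald test gave an adjusted p of 0.0366 for Ago2 and called no other member.

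The changes of the long members ran beside those of long genes in general. Genes with at least 10 kb of exon had a median day 4 over day 1 log2 change of 1.01 in KO cells and 0.39 in WT cells, those of 5 to 10 kb 0.44 in KO cells and 0.17 in WT cells, and those under 5 kb -0.40 in KO cells and -0.13 in WT cells. The share of counts in genes of at least 10 kb was 14.5 and 16.1% on day 4 and 9.22 and 6.96% on day 1 in KO cells, and it was 13.7 and 14.6% on day 4 and 10.5 and 11.8% on day 1 in WT cells. With the trend on exon length removed, the change in KO cells was 0.22 for Ago3 (edgeR adjusted p = 0.411), which ended its call, and 0.59 for Ago2 (edgeR adjusted p = 0.0261) and 1.35 for Ago4 (edgeR adjusted p = 0.00185), which kept theirs. In WT cells it was 0.72 for Ago4 (edgeR adjusted p = 0.0643), and -0.45 for Ago1 (edgeR adjusted p = 0.032), a fall called under that setting.

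**Figure D5:**
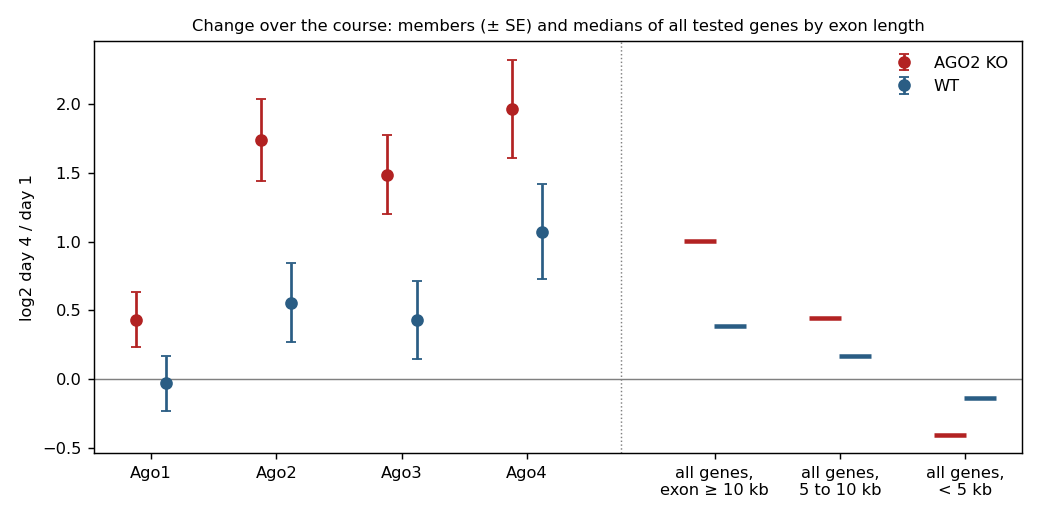
Log2 change of day 4 over day 1 (y axis) for the 4 members, as points with SE, and for all tested genes grouped by length of annotated exon, as dashes at the median (x axis), with AGO2 KO left of WT. In KO cells Ago2 and Ago3 were at 1.74 and 1.49, beside a median of 1.01 for genes with at least 10 kb of exon, and Ago4, with 6.95 kb, was at 1.96, beside a median of 0.44 for genes of 5 to 10 kb.

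All calls of members between neighbouring days lay between days 1 and 2. In KO cells all 4 members rose at this step, by 1.02 ± 0.20 for Ago1, 0.87 ± 0.29 for Ago2, 0.98 ± 0.29 for Ago3 and 2.00 ± 0.35 for Ago4 on the log2 scale (edgeR adjusted p = 0.00135, 0.0285, 0.014 and 6.57e-04), where 43.0% of genes were called. In WT cells Ago4 alone rose, by 1.64 ± 0.34 (edgeR adjusted p = 0.00364), where 21.3% of genes were called. The WT changes of Ago1, Ago2 and Ago3 were 0.29 ± 0.20, -0.66 ± 0.29 and -0.16 ± 0.28 (edgeR adjusted p = 0.318, 0.12 and 0.735). Ago4 was thus the member that rose at this step in both genotypes, and the difference between its rises was 0.36 ± 0.48 (edgeR adjusted p = 0.694).

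Ago1 and Ago4 kept their day 2 calls in KO cells without any single library, while those of Ago2 and Ago3 did not. The Ago2 change was 1.00 (edgeR adjusted p = 0.0556) without replicate 1 of day 1, 0.69 (edgeR adjusted p = 0.201) without replicate 2 of day 1 and 0.51 (edgeR adjusted p = 0.279) without replicate 2 of day 2. The Ago3 change was 0.84 (edgeR adjusted p = 0.127) without replicate 2 of day 1 and 0.74 (edgeR adjusted p = 0.136) without replicate 2 of day 2. The Ago4 change in WT cells was 1.402 (edgeR adjusted p = 0.0588) without replicate 1 of day 1. With the trend on exon length removed, the KO changes were 0.53 for Ago1 (edgeR adjusted p = 0.019), 0.15 for Ago2 (edgeR adjusted p = 0.591), 0.21 for Ago3 (edgeR adjusted p = 0.465) and 1.59 for Ago4 (edgeR adjusted p = 0.00129). The median change of genes with at least 10 kb of exon at this step was 0.64 in KO cells and -0.03 in WT cells.

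The later steps gave no call of a member in either genotype. Between days 2 and 3, 9.35% of genes were called in KO cells and 13.3% in WT cells, and the changes of the members were -0.33 to 0.50 in KO cells and -0.87 to 0.17 in WT cells. Between days 3 and 4, 0.350% of genes were called in KO cells and 1.22% in WT cells, and the changes were -0.26 to 0.37 in KO cells and 0.25 to 1.15 in WT cells. The largest of these was Ago2 in WT cells, at 1.15 ± 0.29 with an edgeR adjusted p of 0.069 and a DESeq2 adjusted p of 0.00649. Unadjusted, p was below 0.05 at these steps for Ago1 and Ago4 between days 2 and 3 in WT cells (0.0116 and 0.0208) and for Ago2 between days 3 and 4 in WT cells (0.00146). Without WT replicate 1 of day 3, 1 WT library of that day was left. These changes were then -0.76 for Ago1, -1.48 for Ago4 and 1.54 for Ago2.

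By mean level, the groups of days 1 to 4 were ordered as follows. For Ago1, KO day 2 (211 CPM) was above KO day 3 (168 CPM) and that above WT day 2 (142.5 CPM) without overlap, and each further neighbour, down to WT day 3 (95.6 CPM), overlapped the next. For Ago2, WT day 4 (548 CPM), WT day 1 (373 CPM) and WT day 3 (246.5 CPM) followed without overlap, WT day 2 (236 CPM) overlapped WT day 3, and KO days 4, 3, 2 and 1 came below at 128, 99.6, 70.4 and 38.6 CPM. For Ago3 the groups between KO day 4 (43.2 CPM) and WT day 2 (25.8 CPM) overlapped at every step, and KO day 1 (15.4 CPM) stood below without overlap. For Ago4, WT day 2 (8.91 CPM) stood above, KO day 1 (1.69 CPM) and WT day 1 (2.86 CPM) were the lowest, and the groups between overlapped from step to step.

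At the endpoint, the KO diff_XEN libraries, 1 for each clone, had different Ago2 levels. A difference between clones cannot be told apart here from one between libraries. Ago2 had 114.6 CPM (1676 counts) in clone C4 and 9.35 CPM (323 counts) in clone 5-3, against 388.7 and 427.2 CPM in WT diff_XEN. Both clones were below WT, but the difference of -2.72 ± 1.04 was not called (edgeR adjusted p = 0.0808). It was -1.82 (edgeR adjusted p = 0.0179) without clone 5-3 and -5.37 (edgeR adjusted p = 0.0136) without clone C4. In these fits the lone KO library is assumed to vary like the WT libraries. In the comparison of KO with WT diff_XEN, 47.0% of 16671 tested genes were called.

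Ago3 was the member called at the endpoint. It had 13.7 CPM in clone C4 and 10.4 CPM in clone 5-3, against 27.0 and 41.6 CPM in WT diff_XEN, a log2 difference of -1.49 ± 0.29 (edgeR adjusted p = 0.011). Both clones were below both WT libraries. Without clone 5-3 the difference was -1.30 (edgeR adjusted p = 0.0699), and with the trend on exon length removed it was -1.28 (edgeR adjusted p = 0.0103), where genes with at least 10 kb of exon had a median of -0.21. Ago1 had 78.5 and 90.5 CPM in the KO clones C4 and 5-3 and 68.4 and 62.8 CPM in WT diff_XEN, without overlap, and its difference of 0.40 ± 0.17 was not called (edgeR adjusted p = 0.113). Ago4 had 3.62 and 3.33 CPM in the KO clones and 4.52 and 9.81 CPM in WT diff_XEN, also without overlap, and its difference of -1.02 ± 0.44 was not called (edgeR adjusted p = 0.11). Without WT library A the difference of Ago4 was -1.50 (edgeR adjusted p = 0.0254).

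Per kb, Ago1 was ahead of Ago2 in both KO clones, by 1.18 times in C4 and 16.7 times in 5-3, and behind it in both WT diff_XEN libraries, at 0.304 and 0.254 times. By coding length the order turned in clone C4, where Ago1 was at 0.687 times Ago2, and it was at 9.72 times in clone 5-3. The sum of the 4 members was 19.2 CPM per kb in clone C4 and 12.9 in clone 5-3, against 38.4 and 42.1 in WT diff_XEN, so that the KO mean was 39.9% of the WT mean. The sum of Ago1, Ago3 and Ago4 in KO cells was 104% of the WT mean, with overlap. The marker lists moved with these differences. The 5 visceral endoderm genes summed to 9.50 to 103 CPM in KO and 8394 to 8467 CPM in WT diff_XEN, and 5 fibroblast and mesenchyme genes to 3530 to 5025 CPM in KO and 544 to 997 CPM in WT diff_XEN. Their part in the Argonaute differences was not tested.

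WT diff_XEN was compared with WT mESC to ask how the members stand after and before differentiation. Ago4 was higher in WT diff_XEN, with 4.52 and 9.81 CPM, against 1.13 and 1.34 CPM in WT mESC, a log2 difference of 2.53 ± 0.49 (edgeR adjusted p = 0.00454). This call was kept without any single library. Ago1 was lower in WT diff_XEN, with 68.4 and 62.8 CPM, against 96.9 and 99.7 CPM in WT mESC, a difference of -0.58 ± 0.20 (edgeR adjusted p = 0.0412). That call was lost without WT diff_XEN library A (-0.60, edgeR adjusted p = 0.147), library B (-0.49, edgeR adjusted p = 0.187), mESC replicate 1 (-0.58, edgeR adjusted p = 0.0552) or mESC replicate 2 (-0.56, edgeR adjusted p = 0.0663), and without the expression filter (-0.54, edgeR adjusted p = 0.113).

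Ago2 had 388.7 and 427.2 CPM in WT diff_XEN and 618.7 and 311.0 CPM in WT mESC, where the mESC libraries lay on either side of the diff_XEN libraries (-0.19 ± 0.90, edgeR adjusted p = 0.874). Ago3 had 27.0 and 41.6 CPM in WT diff_XEN and 43.4 and 34.5 CPM in WT mESC, again with overlap (-0.18 ± 0.30, edgeR adjusted p = 0.629). In this comparison 52.5% of 17936 tested genes were called. The WT diff_XEN and WT mESC counts came from separate deposited files, so that a difference between those files and cell state cannot be told apart.

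Of 26 other genes of the small RNA pathway, 1 was higher and 6 were lower in KO cells on day 1, or 26.9% of the list beside 13.6% of all tested genes. Whether the calls of pathway genes hold without single libraries was not looked at. The median log2 difference of the list was -0.34, against -0.02 over all tested genes. Long genes moved the same way that day, with a median of -0.45 for genes with at least 10 kb of exon and -0.22 for those of 5 to 10 kb, and the part of exon length in the pathway's values was not tested. Hspa8, a chaperone that helps load small RNAs into Argonautes, was higher by 0.66 ± 0.16 on the log2 scale (edgeR adjusted p = 0.025), and Cnot1, the scaffold of the CCR4-NOT deadenylase, had a difference of -0.83 ± 0.20 (edgeR adjusted p = 0.0246). None of the 26 was called on day 2, where 1.63% of all tested genes were, 2 were higher on day 3 (7.69% beside 4.83%) and 1 was higher on day 4 (3.85% beside 7.04%). Dicer1, the nuclease that cuts microRNA precursors, was higher by 0.61 ± 0.16 on day 3 (edgeR adjusted p = 0.0428), as was Trim71, a known regulator of AGO2 and of target mRNAs in stem cells, by 0.62 ± 0.14 (edgeR adjusted p = 0.0212). On day 1 Dicer1 was among the lower genes (-0.56 ± 0.16, edgeR adjusted p = 0.0371). Its mean over the 4 days was not called (0.12 ± 0.08, edgeR adjusted p = 0.342). Cnot1 was not called on days 2, 3 and 4, at 0.04, 0.42 and -0.08. Nor was its mean over the 4 days (-0.11 ± 0.10, edgeR adjusted p = 0.484).

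For the mean of the 4 days, 2 of the 26 were higher and 2 lower in KO cells, a share of 15.4%, near the 17.5% of all tested genes. Tnrc6a, a GW182 scaffold that docks on Argonautes, was higher by 0.44 ± 0.09 (edgeR adjusted p = 0.00493), and the PIWI-clade gene Piwil2, whose product belongs to the germline branch of the family, had a difference of -0.48 ± 0.09 (edgeR adjusted p = 0.0019). In diff_XEN, 2 of 25 tested were higher and 8 lower in KO cells, beside 47.0% of all tested genes called. In WT diff_XEN, 2 of 26 were higher and 12 lower than in WT mESC, a share of 53.8% beside 52.5% of all tested genes.

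Over the course the pathway genes moved in both directions. Between day 1 and day 4, 14 of 26 rose and 7 fell in KO cells, or 80.8% beside 66.3% of all tested genes, and 8 rose and 7 fell in WT cells, or 57.7% beside 48.5%. Genes with at least 10 kb of exon had a median change of 1.01 in KO cells and 0.39 in WT cells. Those under 5 kb had -0.40 in KO cells and -0.13 in WT cells. The part of exon length in the pathway's changes was not tested. Zswim8, part of the ligase known for degrading Argonautes bound to certain targets, rose by 2.90 ± 0.18 in KO cells (edgeR adjusted p = 6.21e-08) and by 2.39 ± 0.18 in WT cells (edgeR adjusted p = 3.63e-07). Tnrc6a rose by 1.89 ± 0.19 in KO cells (edgeR adjusted p = 2.05e-06) and by 1.18 ± 0.19 in WT cells (edgeR adjusted p = 1.73e-04). Hsp90aa1, a chaperone of Argonaute loading, had changes of -1.19 ± 0.14 in KO cells (edgeR adjusted p = 7.92e-06) and -1.49 ± 0.15 in WT cells (edgeR adjusted p = 2.97e-06), and Piwil2 had changes of -1.46 ± 0.18 in KO cells (edgeR adjusted p = 9.74e-06) and -1.58 ± 0.18 in WT cells (edgeR adjusted p = 9.83e-06). P4ha1, a prolyl hydroxylase subunit of an enzyme known to modify AGO2, rose by 1.13 ± 0.23 in KO cells (edgeR adjusted p = 6.27e-04) and by 1.76 ± 0.23 in WT cells (edgeR adjusted p = 3.43e-05). The difference between the genotypes' changes was called for 2 of the 26, a share of 7.69%, near the 6.42% of all tested genes. They were Dcp2, a decapping enzyme, and the GW182 scaffold Tnrc6c, at 1.19 ± 0.29 and 0.82 ± 0.20 (edgeR adjusted p = 0.0303 and 0.0311). Genes with at least 10 kb of exon had a median of 0.555 in this comparison, and those of 5 to 10 kb had 0.261.

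The genes next to the Argonautes were looked at as neighbours on the chromosome. Chrac1, which overlaps the 3′ end of Ago2, was not called in any comparison of the genotypes, with -0.04 ± 0.10 for the mean of the 4 days (edgeR adjusted p = 0.82) and 0.52 ± 0.19 in diff_XEN (edgeR adjusted p = 0.0684). Ptk2, a focal adhesion kinase gene 20.2 kb from the other end of Ago2, had -0.06 ± 0.10 for the mean (edgeR adjusted p = 0.712). With 17.5% of all tested genes called for the mean of the 4 days, 1 of the 6 nearest tested genes around Ago2, 3 on each side, was lower in KO cells, namely Slc45a4 at -0.30 ± 0.08 (edgeR adjusted p = 0.0179). Of the 6 around the chromosome 4 block, 2 were higher, among them the collagen gene Col8a2, 17.4 kb from Ago3, at 0.88 ± 0.18 (edgeR adjusted p = 0.0033). The direct neighbours of the block, Tekt2 and Clspn, had 0.03 ± 0.16 and 0.15 ± 0.08 for this mean (edgeR adjusted p = 0.92 and 0.186). In diff_XEN, where 47.0% of all tested genes were called, 1 of the 6 around Ago2 was higher in KO cells. This was Trappc9, at 1.12 ± 0.24 (edgeR adjusted p = 0.016). Of 5 tested around the block, 1 was higher there and 1 was lower, the latter being Clspn at -2.11 ± 0.26 (edgeR adjusted p = 0.00366).

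The genes most like each member over the 16 libraries of days 1 to 4 were found by Pearson's r of log2 CPM among 10978 genes whose mean reached 5 CPM. For Ago1 they were Cdk5rap2 (r = 0.972), Ankrd6 (0.960), Adgrl1 (0.929) and Cacna1a (0.920). For Ago2 they were Sntb1 (r = 0.902), Vps8 (0.890), Cubn (0.886) and Frmpd1 (0.883). Cubn, the visceral endoderm receptor gene, had a mean of 12.7 CPM in KO cells and 726 CPM in WT cells. For Ago3 they were Scai (r = 0.979), Polq (0.969), the long noncoding RNA gene Malat1 (0.965) and Shprh (0.957), and for Ago4 they were Lrrc32 (0.968), Slit1 (0.967), Tbc1d16 (0.963) and Adam11 (0.957). Between the members, r was -0.25 for Ago1 with Ago2, 0.39 for Ago1 with Ago3, 0.62 for Ago1 with Ago4, 0.48 for Ago2 with Ago3, 0.32 for Ago2 with Ago4 and 0.63 for Ago3 with Ago4. The 16 points share genotype, day and library composition, so these values describe the libraries only.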

How the data were processed

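The members and the gene lists were chosen with earlier results of these data known. Group and day came from the sample labels, and the diff_XEN columns of the series table were matched to groups by name; 3 columns that no label ties to a sample were left out, and KO mESC samples were not analysed here. The authors deposited unnormalised gene-level read counts, made with STAR 2.5.0c, featureCounts 1.4.5-p1 and the mm10 build per the submitters' processing notes; their annotation and strand setting are not given in the sources used here. Replicates differed beyond sampling noise (chi-square per degree of freedom 12.6 to 149) and were kept apart.

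Tests used edgeR 4.0.16 in R 4.3.3, namely its quasi-likelihood test after TMM scaling and its default filter on low counts, in a group means model. The 16 libraries of days 1 to 4 formed 1 fit, the 4 diff_XEN libraries another, and the 6 endpoint libraries one more, for which separate files with the same identifiers were joined. P-values were adjusted over all genes tested. CPM are relative to the TMM-scaled total, and exon lengths, coordinates and neighbours were read from a GENCODE annotation of GRCm38, which is the assembly named mm10. Fold changes are log2, KO over WT or the later over the earlier stage, with SE from the F statistic. Alternatives were DESeq2 size factors, DESeq2 1.42.0, no filter, the replicate block, each day's 4 libraries alone, each library left out, other lengths, days 2 to 4 alone and the exon-length trend removed; the last 2, the coding length, the exon-length classes and the day 2 test of KO minus WT changes were chosen after seeing the data. Named pathway genes were up to 6 with the smallest p between genotypes and up to 4 between day 4 and day 1. Those called for the difference between the genotypes' changes were named as well. Neighbours were 3 tested genes on each side, and like genes the 4 with the highest r, predicted and clone-named genes passed over. The test of KO over WT on day 1 alone was also run on simulated counts, with the same spread for all genes and no exon-length trend. That run does not tell how the fits fare with replicates that differ as these did.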

Additional observations from a re-analysis of the deposited data

Results flagged for a closer look

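The Ago2 change between days 1 and 2 had opposite signs in the genotypes, which called for a closer look. Day 2 over day 1 it was 0.87 ± 0.29 in KO cells, with 56.1 and 84.6 CPM on day 2 and 43.4 and 33.8 CPM on day 1. It was -0.66 ± 0.29 in WT cells, with 271.9 and 200.7 CPM on day 2 and 331.6 and 414.0 CPM on day 1. Each day 2 library was above each day 1 library in KO cells and below each of them in WT cells. The difference, KO minus WT, was 1.53 ± 0.41, with an edgeR adjusted p of 0.113 and a DESeq2 adjusted p of 0.0217, a test added after seeing the data. It was called for 0.119% of all genes and for none of the 4 members by edgeR. Without KO replicate 1 of day 1 it was 1.66 (edgeR adjusted p = 0.0459), and with the exon-length trend removed it was 0.90 (edgeR adjusted p = 0.213), where genes with at least 10 kb of exon had a median of 0.63. What set this difference was not tested.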

How the results depend on the processing

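The fall of Ago2 in KO cells kept its sign under every alternative run, and kept its call on days 1 and 4 and for the mean of the 4 days, as did the higher mean of Ago1. DESeq2 size factors changed no call of a member and shifted the median gene by at most 0.04 (log2). The replicate number did not pair the samples, since the correlation of same-numbered deviations was -0.18 to 0.39 over 28 pairs of groups, and as a block it gave a call to Ago3 on day 1 (-0.85, edgeR adjusted p = 0.0402) and changed no other call of a member. No paired analysis was possible for the diff_XEN and mESC comparisons because the diff_XEN columns carry no replicate numbers. The share of Ago2 in the Argonaute sum of KO cells averaged 21.1% by exon length and 29.5% by coding length.

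In log2 values of the named comparison, alternatives changed the following results of the members, and the cause was not tested. Signs changed with the exon-length trend removed were Ago1 at 0.15 (KO over WT, day 1), Ago1 at -0.32 (day 4 over day 1, KO), Ago2 at -0.18 (day 3 over day 2, WT), Ago2 at -0.068 (day 4 over day 1, WT) and Ago3 at -0.089 (day 3 over day 2, KO). Further such values with the exon-length trend removed were Ago3 at -0.099 (day 3 over day 2, WT), Ago3 at -0.25 (day 4 over day 1, WT) and Ago4 at -0.033 (day 3 over day 2, KO). Calls gained with the exon-length trend removed were Ago1 at -0.72 (day 3 over day 2, WT), Ago1 at -0.45 (day 4 over day 1, WT), Ago2 at -0.75 (day 2 over day 1, WT), Ago3 at -0.72 (WT diff_XEN over WT mESC) and Ago4 at -0.99 (day 3 over day 2, WT). Calls lost with the exon-length trend removed were Ago2 at 0.15 (day 2 over day 1, KO), Ago3 at 0.21 (day 2 over day 1, KO), Ago3 at 0.22 (day 4 over day 1, KO) and Ago4 at 0.72 (day 4 over day 1, WT). Calls gained in a fit of that day's 4 libraries alone were Ago1 at 0.56 (KO over WT, day 2) and Ago3 at -0.89 (KO over WT, day 1). Calls lost in a fit of that day's 4 libraries alone were Ago1 at 0.80 (KO over WT, day 3) and Ago2 at -1.33 (KO over WT, day 3). Calls gained without the filter were Ago1 at 0.57 (KO over WT, day 2), Ago1 at -0.58 (day 3 over day 2, WT), Ago2 at 1.51 (day 2 over day 1, KO minus WT), Ago2 at -0.69 (day 2 over day 1, WT) and Ago2 at 1.15 (day 4 over day 1, KO minus WT). Further such values without the filter were Ago2 at 0.51 (day 4 over day 1, WT), Ago2 at 1.14 (day 4 over day 3, WT), Ago3 at -0.88 (KO over WT, day 1), Ago3 at 1.12 (day 2 over day 1, KO minus WT) and Ago3 at 1.03 (day 4 over day 1, KO minus WT). Further such values without the filter were Ago4 at -0.88 (day 3 over day 2, WT). Calls lost without the filter were Ago1 at -0.54 (WT diff_XEN over WT mESC). Calls gained by the DESeq2 Wald test were Ago1 at -0.58 (day 3 over day 2, WT), Ago2 at 1.49 (day 2 over day 1, KO minus WT), Ago2 at 1.18 (day 4 over day 1, KO minus WT), Ago2 at 1.14 (day 4 over day 3, WT) and Ago3 at -0.86 (KO over WT, day 1). Signs changed over days 2 to 4 alone were Ago3 at 0.21 (KO over WT, mean) and Ago4 at 0.11 (KO over WT, mean).

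Leaving out each library in turn changed a call or sign of the following, given as the lowest and highest log2 value. Ago1 ranged over -0.29 to 0.033 (KO over WT, day 1), 0.69 to 0.99 (KO over WT, day 3), -0.60 to -0.49 (WT diff_XEN over WT mESC), -0.76 to -0.46 (day 3 over day 2, WT) and 0.067 to 0.65 (day 4 over day 1, KO). For Ago1 the further ranges were -0.24 to 0.10 (day 4 over day 1, WT) and -0.58 to 0.004 (day 4 over day 3, KO). Ago2 ranged over -2.06 to -1.49 (KO over WT, day 2), -1.65 to -0.90 (KO over WT, day 3), -5.37 to -1.82 (KO over WT, diff_XEN), -0.60 to 0.41 (WT diff_XEN over WT mESC) and 0.51 to 1.09 (day 2 over day 1, KO). For Ago2 the further ranges were 1.17 to 1.76 (day 2 over day 1, KO minus WT), -0.36 to 0.34 (day 3 over day 2, WT) and 0.84 to 1.54 (day 4 over day 3, WT). Ago3 ranged over -0.009 to 0.51 (KO over WT, day 3), -0.20 to 0.54 (KO over WT, day 4), -1.79 to -1.11 (KO over WT, diff_XEN), -0.14 to 0.042 (KO over WT, mean) and -0.50 to 0.14 (WT diff_XEN over WT mESC). For Ago3 the further ranges were 0.74 to 1.11 (day 2 over day 1, KO), -0.41 to 0.15 (day 2 over day 1, WT), -0.10 to 0.39 (day 3 over day 2, KO), -0.12 to 0.36 (day 3 over day 2, WT) and -0.037 to 0.64 (day 4 over day 3, KO). Ago4 ranged over 0.15 to 1.18 (KO over WT, day 3), -1.50 to -0.33 (KO over WT, diff_XEN), -0.20 to 0.061 (KO over WT, mean), 1.402 to 1.91 (day 2 over day 1, WT) and -0.11 to 0.28 (day 3 over day 2, KO). For Ago4 the further ranges were -1.48 to -0.46 (day 3 over day 2, WT), 0.81 to 1.32 (day 4 over day 1, WT), -0.33 to 0.064 (day 4 over day 3, KO) and -0.14 to 0.89 (day 4 over day 3, WT).

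The number of genes called moved over 1.5 times for KO over WT, day 1, 2406 against 1525 with the exon-length trend removed and 3754 without the filter. It also moved for KO over WT, day 2, 288 against 611 by the DESeq2 Wald test, 1440 in a fit of that day's 4 libraries alone and 1094 without the filter. It also moved for KO over WT, day 3, 854 against 1337 by the DESeq2 Wald test, 35 in a fit of that day's 4 libraries alone and 2035 without the filter. It also moved for KO over WT, day 4, 1246 against 2119 without the filter. It also moved for day 2 over day 1, KO minus WT, 21 against 32 with DESeq2 size factors, 731 by the DESeq2 Wald test, 0 with the exon-length trend removed, 1603 without the filter and 11 with the replicate block. So it did for day 3 over day 2, KO, 1654 against 2651 without the filter. So it did for day 4 over day 1, KO minus WT, 1136 against 2223 by the DESeq2 Wald test, 692 with the exon-length trend removed and 2707 without the filter. So it did for day 4 over day 3, KO, 62 against 849 by the DESeq2 Wald test, 226 with the exon-length trend removed, 1733 without the filter and 18 with the replicate block. So it did for day 4 over day 3, WT, 216 against 930 by the DESeq2 Wald test and 1833 without the filter. With 1 library left out, the lowest and highest counts that moved over 1.5 times were as follows. For KO over WT, day 1, 2406 calls became 45 lacking KO day 1 replicate 2 and 4225 lacking KO day 1 replicate 1. For KO over WT, day 2, 288 calls became 49 lacking WT day 2 replicate 2. For KO over WT, day 3, 854 calls became 271 lacking WT day 3 replicate 2 and 2643 lacking WT day 3 replicate 1. For KO over WT, day 4, 1246 calls became 443 lacking KO day 4 replicate 1. For KO over WT, diff_XEN, 7835 calls became 4180 lacking clone 5-3. For day 2 over day 1, KO, 7612 calls became 3802 lacking KO day 2 replicate 2. For day 2 over day 1, KO minus WT, 21 calls became 0 lacking KO day 1 replicate 2 and 2240 lacking KO day 1 replicate 1. For day 2 over day 1, WT, 3761 calls became 1259 lacking WT day 2 replicate 2. For day 3 over day 2, KO, 1654 calls became 144 lacking KO day 2 replicate 1. For day 3 over day 2, WT, 2360 calls became 333 lacking WT day 2 replicate 1. For day 4 over day 1, KO minus WT, 1136 calls became 222 lacking WT day 1 replicate 2 and 3133 lacking KO day 1 replicate 1. For day 4 over day 3, KO, 62 calls became 1 lacking KO day 3 replicate 1 and 1333 lacking KO day 3 replicate 2. For day 4 over day 3, WT, 216 calls became 0 lacking WT day 3 replicate 2 and 2272 lacking WT day 3 replicate 1. Ago4 had 27 to 188 counts per library on days 1 to 4, so its values carry the largest counting error of the members. Of the 4 genes most like each member by Pearson's r, 3 for Ago1, 1 for Ago2, 2 for Ago3 and 0 for Ago4 were also in the top 4 by Spearman's rho.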
